A study of Mus musculus with 8 samples.

Results

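Aminoacyl-tRNA synthetases and the scaffold genes Aimp1 and Aimp2 were examined in c-kit-high and c-kit-negative cells of mouse leukaemias driven by MLL-AF10, a fusion oncogene of acute myeloid leukaemia. Members were taken by symbol: a letter for the amino acid followed by "ars", with an optional 1 or 2, together with Ears2, Eprs, Farsa, Farsb, Fars2, Aimp1 and Aimp2. The pattern found 36 of the 18193 genes named on the array, measured by 74 probe sets. They comprised 19 cytosolic enzymes or enzyme subunits, 15 mitochondrial enzymes and the 2 Aimp genes. Gars and Kars are counted as cytosolic, although each is known to serve both compartments. Each gene is represented by its brightest probe set over all arrays.

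One fraction, CD117pos, was sorted by flow cytometry for high c-kit (CD117), and the other, CD117neg, for little or no c-kit. Both came from the spleens of the same 4 mice, with 1 array per fraction and mouse, and the mice are called _948, _951, _952 and _953 after the ends of the titles. Every mouse carried leukaemia grown from c-kit+ bone marrow stem and progenitor cells that had been immortalized by a retrovirus and injected into sub-lethally irradiated syngeneic recipients, a strain the labels spell CD57BL/6. Both fractions therefore come from MLL-AF10 leukaemia, and sub-lethal irradiation leaves a recipient some blood cells of its own. Neither the age of the mice nor whether the leukaemias arose from separate transductions is given in the sources used here.

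An aminoacyl-tRNA synthetase joins one amino acid to its matching tRNA, the step that fixes the meaning of the genetic code before the ribosome reads it. Cytosolic enzymes charge tRNA for proteins made from nuclear genes. A separate set, also encoded in the nucleus and named with a final 2, is imported into mitochondria, where it charges tRNA for the few respiratory chain proteins encoded by mitochondrial DNA. Several cytosolic enzymes sit in a large multi-synthetase complex held together by Aimp1, Aimp2 and Eef1e1. When amino acids run short, the transcription factor ATF4 is known to raise many cytosolic synthetase genes along with genes of amino acid synthesis and uptake.

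In CD117pos cells 11 of the 36 members passed the test as higher and 0 as lower, and 0 were lower even at an unadjusted p under 0.05 in limma. Of the 11, 7 were mitochondrial (Vars2, Yars2, Tars2, Cars2, Mars2, Sars2 and Nars2) and 4 were cytosolic (Eprs, Farsb, Rars and Hars). Differences are given as CD117pos minus CD117neg on the scale of log2(intensity + 16), and a call needs an adjusted p under 0.05 in limma with the mouse as a block, adjusted over all 18193 genes. The 11 calls made up 30.6% of the members, beside 8.36% of all genes called higher and 13.8% called lower. After quantile normalisation 22 members were higher, beside 12.9% of all genes higher and 10.9% lower, and after centring on array medians 14 were higher, beside 10.4% and 11.4%. With a pseudocount of 1 it was 7 members, beside 5.48% of all genes higher and 10.3% lower. In a fit limited to genes with a mean intensity of at least 50, 11 of 34 members were higher, beside 17.3% of those genes higher and 25.9% lower. In the main fit the other 25 members did not pass. In 15 members all CD117pos arrays lay above all CD117neg arrays, which held for 10.4% of all genes, and no member showed the opposite, found in 17.2% of all genes. Differences were positive in 35 of the 36, the exception being Sars at -0.03, beside 8859 of the 18193 genes. The median difference over the members was 0.47, beside -0.01 over all genes. Of the 21 probe sets of members that were not used to represent a gene and had a mean of at least 50, 9 passed as higher and 0 as lower, beside 6.89% and 12.1% of all probe sets.

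**Figure D1:**
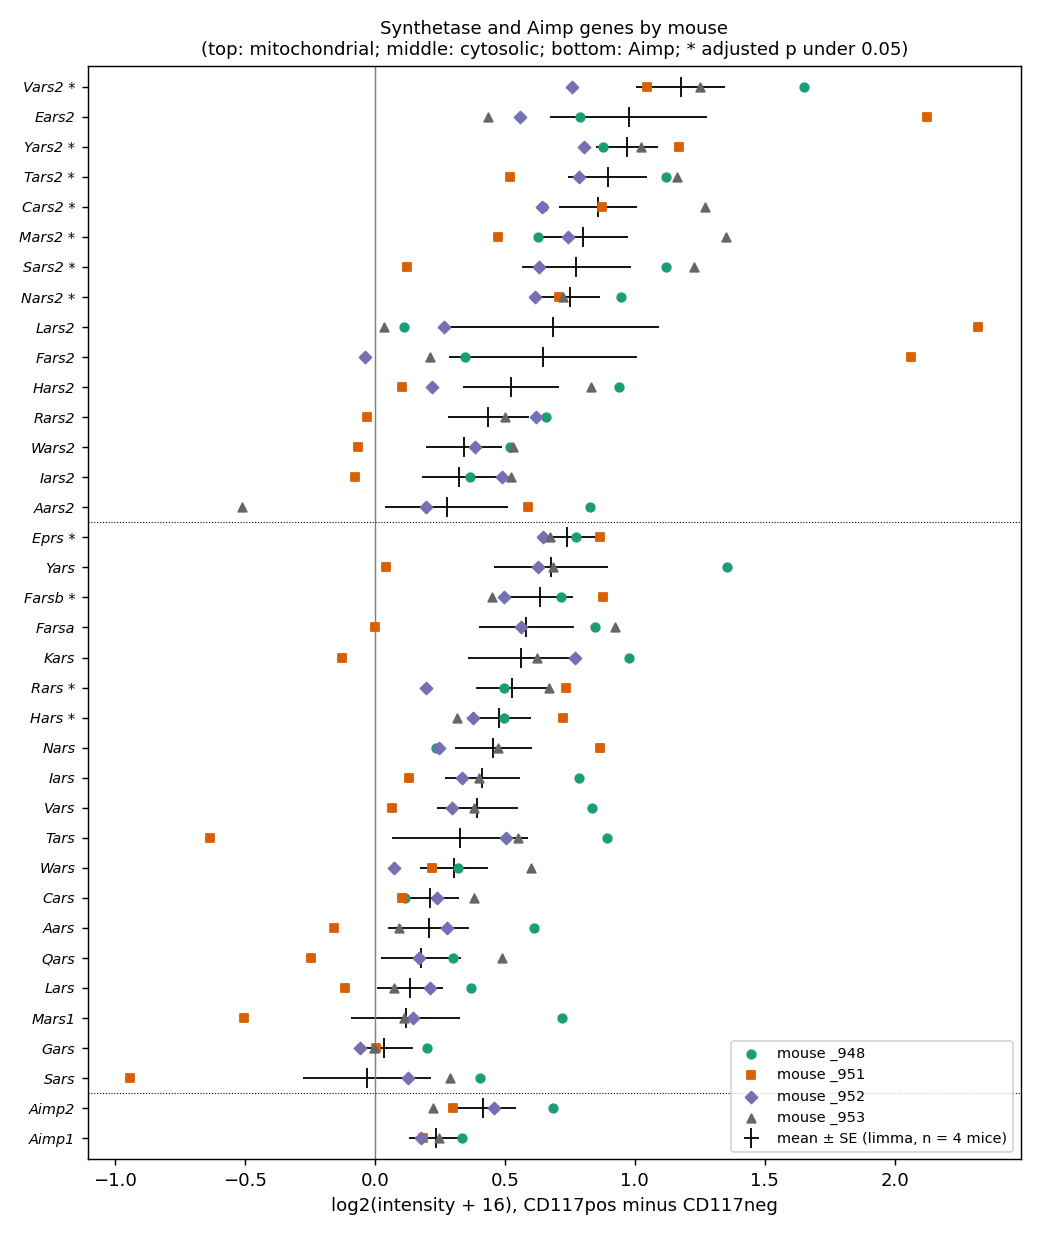
Difference between fractions in each mouse (horizontal axis, CD117pos minus CD117neg, log2(intensity + 16)) for each of the 36 members (rows, grouped as mitochondrial, cytosolic and Aimp genes), with 1 symbol per mouse and a bar for the mean over mice. Most symbols lie right of 0, and those of mouse _951 spread widest, to both sides of the rest.

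Kit, the gene of the sorted receptor, had an intensity of 751 ± 127 in CD117pos and 28.6 ± 9.73 in CD117neg arrays (SD, n = 4 each) and is the marker the sort used. Mature myeloid markers were lower in CD117pos: 14 of 17 monocyte and macrophage genes and 11 of 12 late neutrophil genes passed as lower, with summed intensities of 2786 to 8774 against 40220 to 50090, and 14640 to 34500 against 71860 to 81210. Of other cell types, 1 of 9 B cell and 1 of 11 T cell markers passed as lower, 1 of 6 NK cell markers as higher, and 1 of 8 stroma and endothelium markers as higher with 2 lower. Among 7 erythroid, 6 megakaryocyte and 7 mast cell markers none passed in limma, with 1 megakaryocyte and 1 mast cell gene lower at an unadjusted p under 0.05. In such bulk samples, fewer cells of a type and less RNA per cell cannot be told apart. The CD117pos array of mouse _951 stood apart from its group. Its correlation with the other CD117pos arrays was 0.929 to 0.931 across genes, whereas these correlated with each other at 0.987 to 0.989. The ratio of 3' to 5' control probe sets for Gapdh was 5.44 on that array, against 2.56 to 2.77 on the other CD117pos arrays and 2.76 to 3.23 on CD117neg arrays. The monocyte and macrophage sum was 2786 on that array, against 6257 to 8774 on the other CD117pos arrays. Its late neutrophil sum was 14640, against 27700 to 34500. Its B cell sum also lay below those arrays, and its NK cell, erythroid, megakaryocyte, and stroma and endothelium sums lay above. The summed intensity of 7 mast cell markers was 793 on that array, against 122 to 165 on the other CD117pos arrays. Of this, 722 came from Ms4a2, while Cpa3, Mcpt4 and Tpsb2 stayed below the median of every array. The summed T cell list was 687, against 162 to 294, with 537 of it from Cd8a, singled out after its values were seen, and with Cd3e, Cd3d and Cd4 below the median of all 8 arrays. How far these properties of the array shaped the synthetase values was not tested, and results that rest on it are given with and without mouse _951.

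Mitochondrial synthetases had the higher median difference of the 2 compartments, which was described and not tested. Of the 15 genes, 7 passed as higher and 0 as lower (46.7% higher, beside 8.36% of all genes higher and 13.8% lower), all 15 had a positive difference, and the median was 0.75 (range 0.28 to 1.18). Without mouse _951, 12 of the 15 passed, beside 11.7% of all genes, and the median was 0.66. In the fit limited to genes with a mean of at least 50, 6 of 13 passed, beside 17.3% of genes. Averaging the probe sets of each gene, in place of taking the brightest, gave a median of 0.41, against 0.39 for the cytosolic enzymes, so the distance between the compartments depends on the choice of probe set. That average includes probe sets near background, such as those of Cars2, Iars2 and Nars2 with means of 4.57, 5.30 and 8.95. Cytosolic genes had dim ones too, such as Cars with 11.6. Aars2 and Sars2 had means over the 8 arrays of 10.4 and 32.6, under the filter on low values, a mean of 50, that the other 34 members passed.

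Vars2 charges the mitochondrial valine tRNA (Entrez gene 68915). In mice _948, _951, _952 and _953 its intensity was 207, 146, 164 and 286 on CD117pos arrays, against 55.0, 62.4, 90.3 and 111 on CD117neg arrays. Each CD117pos array lay above each CD117neg array, and the log2 difference was widest in mouse _948. The log2 difference was 1.18 ± 0.17 (SE; adjusted p = 0.00751), a 2.26-fold ratio and the largest among the members. Its second probe set, dimmer at a mean of 78.8, differed by 0.57 and did not pass (adjusted p = 0.0886).

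Yars2, the mitochondrial tyrosine enzyme (Entrez gene 70120), gave 159, 250, 225 and 223 on CD117pos arrays, in the same order of mice, and 79.4, 102, 122 and 102 on CD117neg arrays. The fractions did not overlap, and the 4 mice gave similar differences, between 0.81 and 1.17. The log2 difference was 0.97 ± 0.12 (adjusted p = 0.00487), and a second probe set of the gene gave 0.98 (adjusted p = 0.0104). Yars2 alone among the members remained past the threshold when any one of the mice was left out, with adjusted p between 0.00455 and 0.0368.

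Tars2, the threonine enzyme of mitochondria (Entrez gene 71807), gave 863, 567, 808 and 872 on CD117pos arrays, against 389, 391, 463 and 381 on CD117neg arrays. The fractions were clearly separate, with the CD117pos array of mouse _951 the lowest of its group. The difference was 0.90 ± 0.15 (adjusted p = 0.0116), and the gene's other probe set gave 0.68 (adjusted p = 0.0154).

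Cars2 charges the mitochondrial cysteine tRNA (Entrez gene 71941). It measured 373, 331, 358 and 494 in CD117pos, against 232, 174, 223 and 196 in CD117neg. No CD117pos array fell as low as any CD117neg array, and mouse _953 had the widest gap. The difference was 0.86 ± 0.15 (adjusted p = 0.0127). Its second probe set, with a mean of 61.8, gave 0.45 and did not pass (adjusted p = 0.115), and the mean of its probe sets gave 0.45 with a call (adjusted p = 0.0369). Nars2, which charges the mitochondrial asparagine tRNA (Entrez gene 244141), measured 213, 238, 219 and 223 in CD117pos, against 103, 139, 137 and 129 in CD117neg. Both fractions were tight, and the arrays of CD117pos spanned the smaller range relative to their level. The difference was 0.75 ± 0.12 (adjusted p = 0.00899).

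Mars2, the mitochondrial methionine enzyme (Entrez gene 212679), supplies the methionyl-tRNA from which mitochondrial translation starts. Its low intensities were 76.0, 70.7, 69.0 and 113 in CD117pos, against 43.6, 46.4, 34.8 and 34.4 in CD117neg. The fractions were separate, with mouse _953 again giving the widest gap. The difference was 0.80 ± 0.17 (adjusted p = 0.0256). With the mean of all its probe sets, the other of which is near background at 7.62, the difference was 0.33 and the call was lost (adjusted p = 0.143).

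Sars2, the mitochondrial serine enzyme (Entrez gene 71984), passed by the narrowest margin. Its values were 57.8, 24.6, 56.0 and 43.4 in CD117pos, against 17.97, 21.2, 30.5 and 9.38 in CD117neg. It was the only called member whose fractions overlapped, since the CD117pos array of mouse _951 lay below the CD117neg array of mouse _952. The difference was 0.78 ± 0.21 with an adjusted p of 0.04998. It did not pass with a pseudocount of 64 (adjusted p = 0.0626) or of 1 (0.0843).

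Among the 8 mitochondrial genes that did not pass, the CD117pos array of mouse _951 stood out in several. Lars2, the leucine enzyme, measured 586, 3061, 503 and 489 in CD117pos, against 541, 600, 415 and 476 in CD117neg. Outside mouse _951 the 2 fractions lay close together. The difference of 0.68 ± 0.41 (adjusted p = 0.307) was 0.14 without that mouse. Fars2, the phenylalanine enzyme, measured 312, 684, 270 and 278 in CD117pos, against 242, 152, 277 and 238 in CD117neg, and its difference of 0.65 (adjusted p = 0.275) was 0.17 without mouse _951. The glutamate enzyme gene Ears2 measured 83.6, 194, 55.3 and 70.1 in CD117pos, against 41.7, 32.3, 32.5 and 47.6 in CD117neg. Its fractions did not overlap even so, and its difference of 0.98 ± 0.30 (adjusted p = 0.0711) was 0.59 without mouse _951, where it passed (adjusted p = 0.0202). The mean of its probe sets gave 0.37 (adjusted p = 0.286). The remaining genes, Aars2, Hars2, Iars2, Rars2 and Wars2, differed by 0.28 to 0.52 with adjusted p between 0.103 and 0.473.

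**Figure D2:**
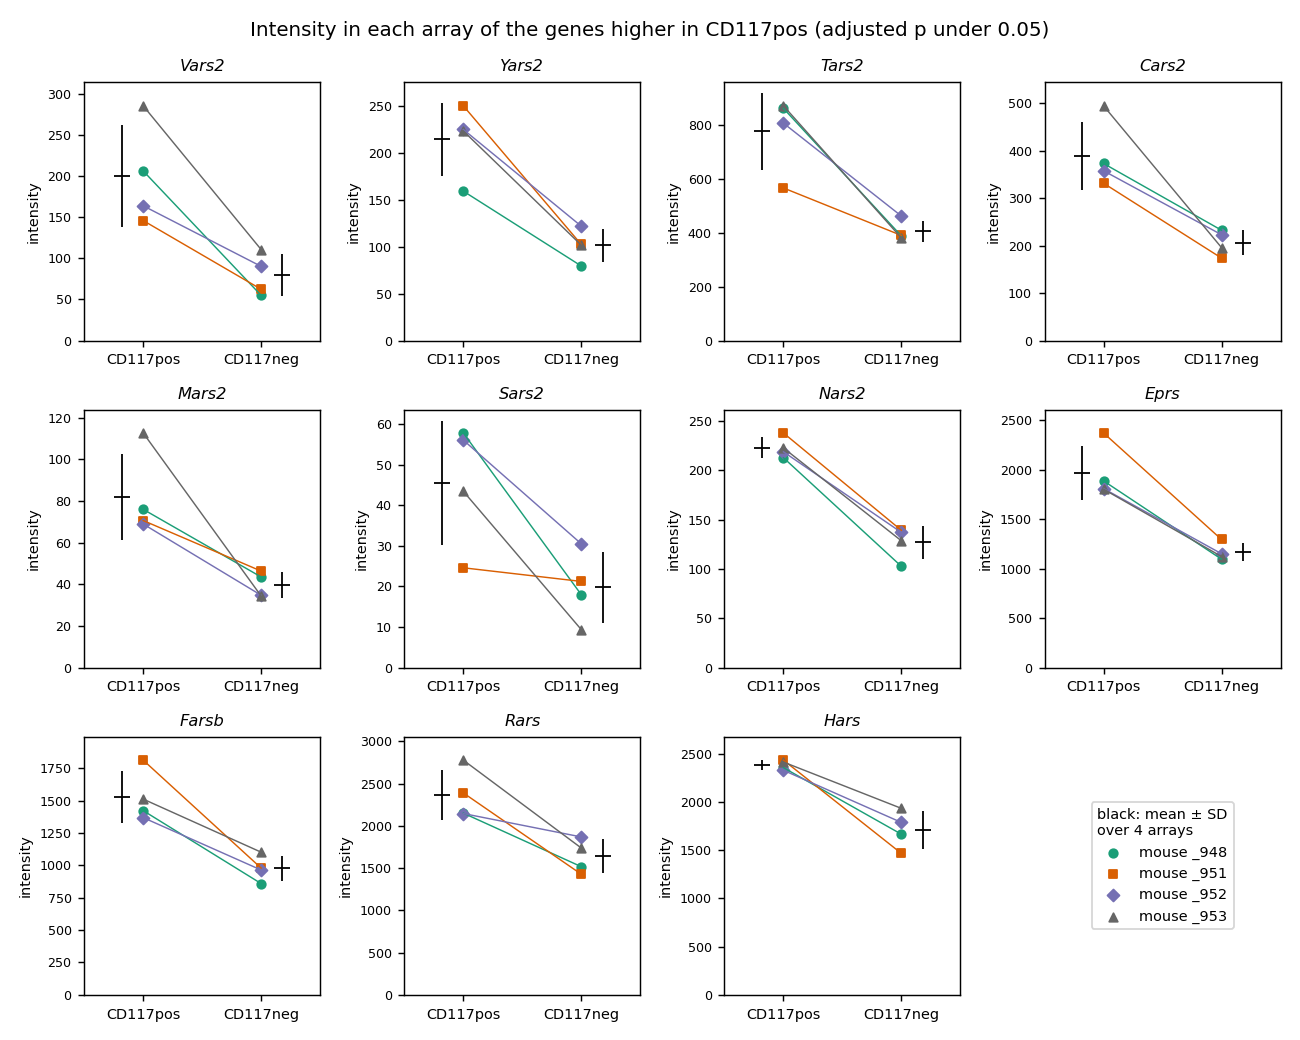
Probe set intensity (vertical axes, linear from 0, 1 panel per gene) of the 11 members that passed the test, with CD117pos arrays on the left, CD117neg arrays on the right, 1 line per mouse and short bars for the group means. Lines run downwards from CD117pos to CD117neg in all panels, and Sars2 is the only panel in which arrays of both fractions share a range.

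Cytosolic synthetases are the enzymes of ordinary protein synthesis, and fewer of them passed. Of 19 genes, 4 passed as higher and 0 as lower (21.1% higher, beside 8.36% of all genes), and the median difference was 0.40 (range -0.03 to 0.74). All 19 reached a mean intensity of at least 50. In the fit limited to such genes 4 of them passed as well, beside 17.3% of genes, so their share lay nearer the background there. Without mouse _951, 8 of the 19 passed, beside 11.7% of all genes, with a median of 0.40 as well. With probe sets whose names lack the suffixes _a, _s and _x, where a gene had one, the median was 0.21. Of 7 enzymes in the complex, 2 passed and the median was 0.41; of 12 outside it, 2 passed and the median was 0.36. By catalytic fold, 5 of 18 class I enzymes and 5 of 15 class II enzymes of both compartments passed, with medians of 0.43 and 0.52. These shares were 28.6% in the complex, 16.7% outside it, 27.8% of class I and 33.3% of class II, beside the same 8.36% of all genes. In the fit limited to genes with a mean of at least 50, the share over genes was 17.3%. Eprs, which carries a domain of each class, was counted in neither.

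Eprs (Entrez gene 107508) encodes a fused enzyme that charges both glutamate and proline tRNAs and belongs to the complex. It measured 1887, 2371, 1809 and 1803 in CD117pos, against 1096, 1295, 1151 and 1123 in CD117neg. Every mouse showed a similar gap, and both arrays of mouse _951 were the brightest of their fraction. The difference was 0.74 ± 0.11 (adjusted p = 0.00808). Its 3 other probe sets also passed as higher, with differences of 0.91, 1.19 and 0.61.

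Phenylalanine is charged by a cytosolic enzyme of paired subunits, encoded by Farsa and Farsb. Farsb (Entrez gene 23874), the beta subunit, measured 1423, 1813, 1369 and 1512 in CD117pos, against 860, 979, 964 and 1102 in CD117neg. The fractions were separate, and the difference was 0.64 ± 0.13 (adjusted p = 0.0192). A dim probe set of Farsb with a mean of 37.3, the only one without the suffix _a, _s or _x, gave -0.13 (adjusted p = 0.610). Another, with the suffix _a and a mean of 439, gave 0.59 and did not pass (adjusted p = 0.0967). One with the suffix _s gave 0.57 and passed (adjusted p = 0.0231). Farsa, the alpha subunit, measured 586, 357, 471 and 565 in CD117pos, against 318, 357, 314 and 290 in CD117neg. Its arrays of mouse _951 were level with each other, and the difference of 0.58 ± 0.18 did not pass (adjusted p = 0.076). Without mouse _951 it was 0.78 and passed (adjusted p = 0.00958).

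Rars, the arginine enzyme of the complex (Entrez gene 104458), measured 2151, 2390, 2146 and 2778 in CD117pos, against 1517, 1428, 1869 and 1738 in CD117neg. Its fractions were separate, and the smallest gap was in mouse _952. The difference was 0.53 ± 0.14 (adjusted p = 0.0427). Without mouse _951 it was 0.46 and the call was lost (adjusted p = 0.0591). Hars, the histidine enzyme (Entrez gene 15115), measured 2355, 2433, 2328 and 2413 in CD117pos, against 1665, 1466, 1787 and 1933 in CD117neg. CD117pos arrays were close to each other and all above CD117neg. The difference was 0.48 ± 0.12 (adjusted p = 0.0418), and a second probe set gave 0.57 (adjusted p = 0.0405).

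Nars, the asparagine enzyme, measured 3879, 5589, 3849 and 4636 in CD117pos, against 3290, 3060, 3239 and 3337 in CD117neg. The fractions were separate, yet the difference of 0.46 ± 0.15 did not pass on this probe set (adjusted p = 0.0837). A second probe set gave 0.87 and passed (adjusted p = 0.0113). Yars, the tyrosine enzyme, measured 954, 448, 550 and 697 in CD117pos, against 364, 435, 350 and 427 in CD117neg. Its lowest CD117pos array, that of mouse _951, lay just above the highest CD117neg array. The difference was 0.68 ± 0.22 (adjusted p = 0.083), and 0.89 without mouse _951, where it passed (adjusted p = 0.0183).

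Kars, the lysine enzyme of cytosol and mitochondria, measured 1762, 1115, 1842 and 1814 in CD117pos, against 886, 1218, 1072 and 1173 in CD117neg. Mice _948, _952 and _953 showed a wide gap and mouse _951 a small one in the opposite direction. The difference of 0.56 ± 0.20 did not pass (adjusted p = 0.11) and was 0.79 without mouse _951, where it passed (adjusted p = 0.00861). Gars, the glycine enzyme and the other gene serving both compartments, differed by 0.04 ± 0.11 (adjusted p = 0.853). It measured 1581, 1118, 1331 and 1385 in CD117pos, against 1371, 1113, 1386 and 1388 in CD117neg, and only the CD117pos array of mouse _948 lay above all CD117neg arrays. Sars, the serine enzyme, was the only member with a negative difference. Its intensities were 1265, 400, 878 and 920 in CD117pos, against 952.9, 782, 802 and 750 in CD117neg, and mouse _951 alone had the lower value in CD117pos. The difference was -0.03 ± 0.25 (adjusted p = 0.95) and turned positive without mouse _951, at 0.27, and after quantile normalisation, at 0.17.

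The other cytosolic genes, Aars, Cars, Iars, Lars, Mars1, Qars, Tars, Vars and Wars, had differences between 0.12 (Mars1) and 0.41 (Iars), and none passed. Wars had probe sets of opposite sign. Its brightest gave 0.30 and another 0.47 with a call (adjusted p = 0.046). The one without the suffix _a, _s or _x gave -0.30 (adjusted p = 0.176). A dim one with the suffix _a, at a mean of 43.8, gave 0.38 (adjusted p = 0.345).

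ATF4-responsive synthetases were set apart with a list of cytosolic genes reported to answer amino acid shortage. Of the 12 listed genes measured, 1 passed as higher (Eprs), a share of 8.33% at the background of 8.36%, and the median difference was 0.26. Among the 7 cytosolic genes outside that list, 3 passed (Farsb, Rars and Hars; 42.9%), with a median of 0.53. Without mouse _951, 4 of the 12 listed genes passed, beside 11.7% of all genes. Of 32 measured ATF4 genes other than synthetases, 6 passed as higher and 4 as lower, beside 8.36% and 13.8% of all genes, with a median of -0.00. Nupr1, a stress-induced chromatin protein gene, measured 39.0, 4.74, 19.3 and 12.5 in CD117pos, against 560, 258, 431 and 596 in CD117neg, a difference of -3.80 ± 0.19 (adjusted p = 0.000441). Ddit4, an inhibitor of mTORC1 signalling, was lower as well, by -2.32 ± 0.32 (adjusted p = 0.0065). Slc7a5, the light chain of an essential amino acid transporter, was higher, with 444, 437, 170 and 312 in CD117pos, against 160, 190, 94.6 and 199 in CD117neg, a difference of 0.97 ± 0.17 (adjusted p = 0.0122).

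Promoter sequences were examined for the element through which ATF4 acts. RefSeq windows of the GRCm38.p6 build, from 250 bases before to 50 bases after a start, matched 28 of the 36 members, all but Cars, Hars, Hars2, Lars, Nars, Rars, Vars and Wars. They were searched on both strands for the amino acid response element bound by ATF4, TGATGNAAN. It was found in 5 of 12 cytosolic genes (Aars, Gars, Iars, Tars and Yars) and in 0 of 14 mitochondrial genes, beside 4.5% of 27025 genes. All 5 genes belong to the ATF4-responsive list and none of them passed the test between the fractions over 4 mice. Without mouse _951, 3 of them passed: Iars (adjusted p = 0.0445), Tars (0.018) and Yars (0.0183). Aars holds a second match, beginning at position -113 from its start, that is not printed. The printed sites of Yars, Aars and Iars begin after the start, at positions 4, 9 and 7. Those of Gars and Tars begin before it, at -31 and -16. For each gene the site nearest its start is printed here so that the copies of the element can be compared. Each is read 5' to 3' on the strand where the element appears, with the element in capitals.
Yars, chr4:129189896-129189925, plus strand: cgagctcagcTGATGCAACccgacgggact
Gars, chr6:55037959-55037988, minus strand: gcccggtgcaTGATGAAATagcgcagccag
Aars, chr8:111033839-111033868, minus strand: cagagcgctcTGATGAAAAgtgacccgcta
Iars, chr13:49682125-49682154, minus strand: cgtctggaggTGATGCAATactgacagtgc
Tars, chr15:11399656-11399685, plus strand: gctaaccagcTGATGCAACgggactcctgg

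Yars2, which passed with any one mouse left out, had no such site. Its upstream 250 bases are shown as an example of a called mitochondrial gene, on the plus strand of the genome. They hold neither the response element nor the E-box CACGTG, so no letters are in capitals.
Yars2, chr16:16302715-16302964: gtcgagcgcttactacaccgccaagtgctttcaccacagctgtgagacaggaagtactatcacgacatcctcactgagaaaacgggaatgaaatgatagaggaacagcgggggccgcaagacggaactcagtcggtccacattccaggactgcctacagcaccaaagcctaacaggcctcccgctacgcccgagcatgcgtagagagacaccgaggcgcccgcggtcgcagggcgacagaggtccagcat
The E-box, bound by MYC and related factors, lay in the windows of 4 cytosolic genes (Aars, Farsb, Iars and Tars) and 1 mitochondrial gene (Ears2), beside 8.09% of genes. The element of the nuclear respiratory factor NRF1, in its full palindromic form, was found in 0 of the 28, beside 1.07% of genes. The ETS element CCGGAAGT was found in 4 (Aimp1, Farsa, Mars1 and Rars2), beside 4.31%. A match is a description of letters and does not show binding.

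Amino acids served by an enzyme in each compartment allow a direct comparison. In 14 of 16 such pairs the mitochondrial gene had the larger difference. The exceptions were isoleucine, with 0.33 for Iars2 and 0.41 for Iars, and arginine, with 0.44 for Rars2 and 0.53 for Rars. The widest separation was found for serine, where Sars2 differed by 0.78 and Sars by -0.03, and for valine, where Vars2 differed by 1.18 and Vars by 0.40. In the pairs for phenylalanine, Fars2 is set against both Farsa and Farsb, and its own value rests on mouse _951. Without mouse _951 the mitochondrial gene had the larger difference in 10 of the 16 pairs. In that fit the cytosolic gene had the larger value for alanine, glutamate, phenylalanine (both subunits), isoleucine and leucine. The pairs also depend on the probe set. With the mean of each gene's probe sets over all mice, the exceptions for isoleucine and arginine remained. The cytosolic gene was then also larger for glutamate (0.86 against 0.37), histidine (0.53 against 0.32) and asparagine (0.66 against 0.54). The Nars2 average includes a probe set near background, with a mean of 8.95, and that of Ears2 one with 18.1. Eprs also had a dim one, with 21.96. Farsb was slightly larger than Fars2 (0.417 against 0.411). The scale understates the change of probe sets of low intensity, such as that of Sars2. These pairs are a description of the members, without a test.

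**Figure D3:**
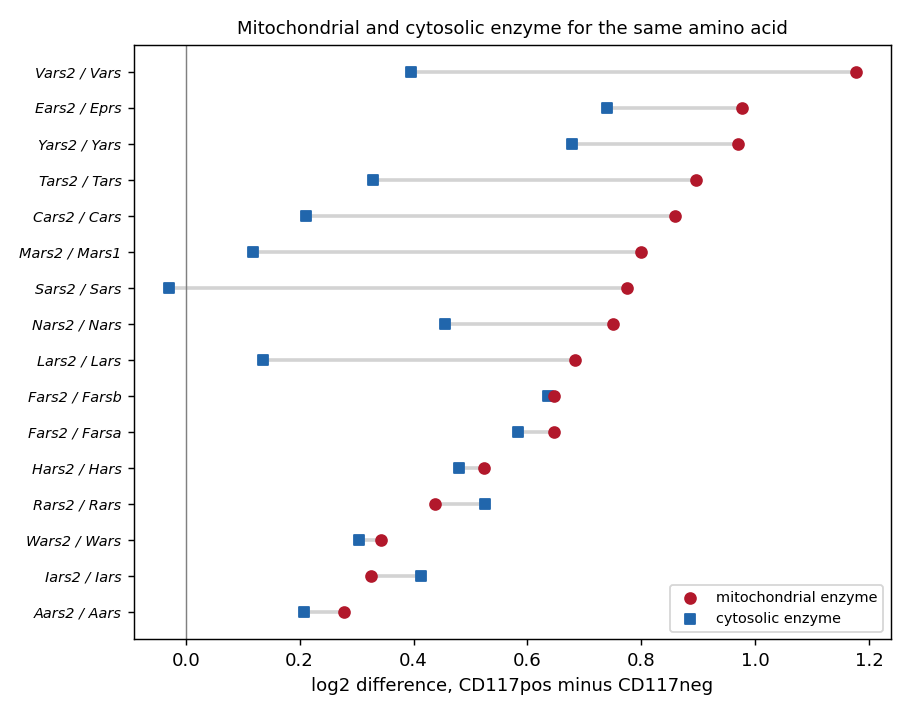
Log2 difference (horizontal axis, CD117pos minus CD117neg) of the mitochondrial enzyme (circle) and the cytosolic enzyme (square) for the same amino acid. Each row is 1 pair, its symbols joined by a grey segment. In 14 of 16 pairs the mitochondrial symbol lies right of the cytosolic one. Without mouse _951, a fit not drawn here, the mitochondrial difference was the larger in 10.

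The scaffold genes of the multi-synthetase complex did not pass in limma, 1 of them (Aimp2) having an unadjusted p under 0.05. Aimp1 measured 1422, 1032, 1188 and 1223 in CD117pos, against 1124, 905, 1048 and 1027 in CD117neg, a difference of 0.24 ± 0.11 (adjusted p = 0.184). Aimp2 measured 790, 692, 727 and 742 in CD117pos, against 485, 558, 524 and 632 in CD117neg. Its fractions were separate, but the difference of 0.42 ± 0.13 missed the threshold (adjusted p = 0.0692), while its dimmer probe set gave 0.55 and passed (adjusted p = 0.0288). The third scaffold gene, Eef1e1, lies outside the symbol pattern and showed a larger difference. It measured 1925, 2622, 2204 and 2443 in CD117pos, against 809, 864, 978 and 1001 in CD117neg, a difference of 1.31 ± 0.12 (adjusted p = 0.00243).

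Other close relatives of the synthetases were listed beside it. In that list of 7 measured genes, 4 passed as higher and 0 as lower, beside 8.36% and 13.8% of all genes. Aarsd1, an editing protein that removes serine wrongly attached to alanine tRNA, measured 611, 472, 464 and 604 in CD117pos, against 198, 165, 245 and 182 in CD117neg, a difference of 1.38 ± 0.16 (adjusted p = 0.00424). Dtd1, which removes D-amino acids from tRNA, differed by 1.17 ± 0.12 (adjusted p = 0.00331). Pars2, the mitochondrial proline enzyme, differed by 0.69 ± 0.12 (adjusted p = 0.012). Tarsl2, a second threonine enzyme of the cytosol, differed by 0.54 (adjusted p = 0.0905), Dalrd3, a tRNA-binding protein, by 0.41 (0.411), and Prorsd1, a relative of the editing domain for prolyl-tRNA, by -0.39 (0.148).

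Partners of the synthetases before and after charging were counted in the same way, and their counts stand beside 8.36% of all genes higher and 13.8% lower. In the fit limited to genes with a mean of at least 50, these shares were 17.3% and 25.9%. Of 21 measured tRNA maturation and export genes, 6 passed as higher and 2 as lower (28.6% higher, median 0.34). The RNase P and MRP subunit genes Rpp14, Rpp40 and Pop1 led the higher genes with differences of 1.12, 1.09 and 1.08. Of 20 genes of RNA polymerase III and its factors, which transcribe tRNA genes, 2 passed as higher (Polr3e at 0.54 and Gtf3c6 at 0.51) and 0 as lower, or 2 as lower at an unadjusted p under 0.05, with a median of 0.00. Their share of higher genes lay near the background. Among 6 elongation factors that carry charged tRNA to the ribosome or reload its carrier, 2 passed as higher (33.3%). These were Tufm, the mitochondrial factor, at 0.60 ± 0.12 (adjusted p = 0.0191) and Eef1a2 at 0.91 ± 0.15 (adjusted p = 0.0113). Eef1a2 was dim, at 60.4 ± 4.31 in CD117pos and 24.98 ± 6.69 in CD117neg. Of 24 mitochondrial translation partners, 6 passed as higher and 0 as lower (25% higher, median 0.25). Gatb, a subunit of the amidotransferase that makes mitochondrial glutaminyl-tRNA, differed by 0.91 ± 0.11 (adjusted p = 0.0053). The tRNA methyltransferase genes Trmt5 and Trmt10c differed by 0.80 and 0.74. A few genes, Tufm among them, stand in more than one list.

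**Figure D4:**
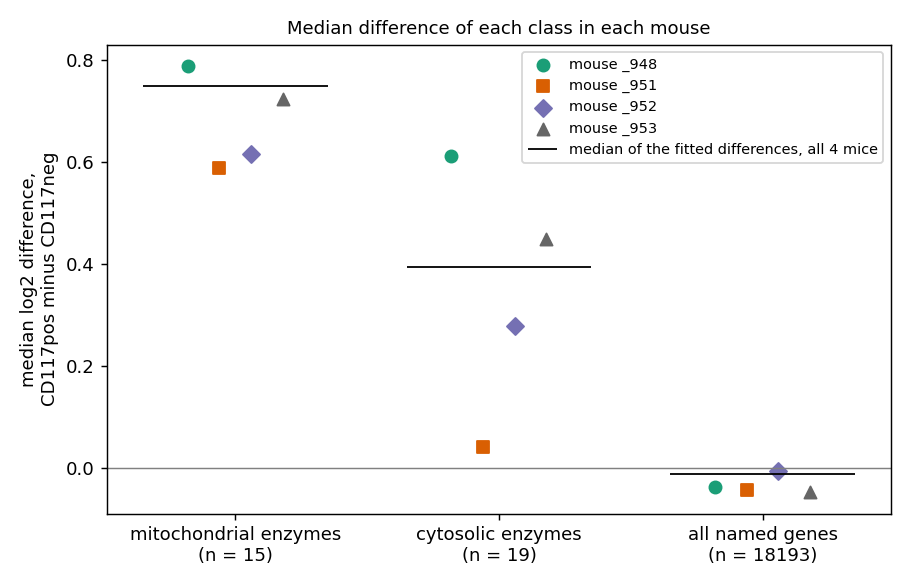
Median log2 difference (CD117pos minus CD117neg) in each mouse for mitochondrial synthetases, cytosolic synthetases and all named genes. Mitochondrial medians lie between 0.59 and 0.79, cytosolic ones between 0.04 and 0.61 with mouse _951 the lowest, and those of all genes near 0.

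Each mouse gives its own difference between its fractions. Median differences of mitochondrial enzymes were 0.79, 0.59, 0.62 and 0.72 in mice _948, _951, _952 and _953. For cytosolic enzymes they were 0.61, 0.04, 0.28 and 0.45, and for all genes -0.04, -0.04, -0.00 and -0.05. All 36 members were higher in CD117pos in mouse _948, 34 in each of mice _952 and _953, and 26 in mouse _951. Of the 18193 genes, 8387 were higher in mouse _948, 8931 in _952, 8307 in _953 and 8477 in _951. In all 4 mice 23 members were higher, beside 18.5% of all genes. In 24 members the CD117pos array of mouse _951 was the lowest of its fraction, and in 9 it was the highest. No share over all genes was computed for these counts, so they are not read as a trait of the members. That array was also the highest of all 8 arrays in 9 members, beside 21.4% of all genes. Within that mouse 10 members were lower in CD117pos, beside 53.0% of all genes. Probe sets of some genes differed in size or sign in mouse _951. A second Aars probe set gave -1.56 where the brighter one gave -0.15, both negative. A Qars probe set with the suffix _x gave 1.21 where the brightest gave -0.25. The moderated F-test found no member that differed between mice after adjustment, as for 0.0% of all genes. At an unadjusted p under 0.05 it found 2 members (Cars and Wars2), beside 7.71% of all genes.

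Leaving out mouse _951 gave 20 members higher and 0 lower, beside 11.7% of all genes higher, with a positive difference in all 36. Of the 11 members called over 4 mice, 10 were among the 20, Rars being the exception. Leaving out mouse _948 gave 2 members higher, mouse _952 5, and mouse _953 2, beside 2.47%, 3.36% and 2.42% of all genes. The members still past the threshold were Vars2 and Yars2 without mouse _948, these with Cars2, Eprs and Nars2 without mouse _952, and Eprs and Yars2 without mouse _953. Those that lost the call had adjusted p of 0.052 to 0.189 without mouse _948, 0.0541 to 0.135 without mouse _952 and 0.0505 to 0.178 without mouse _953.

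**Figure D5:**
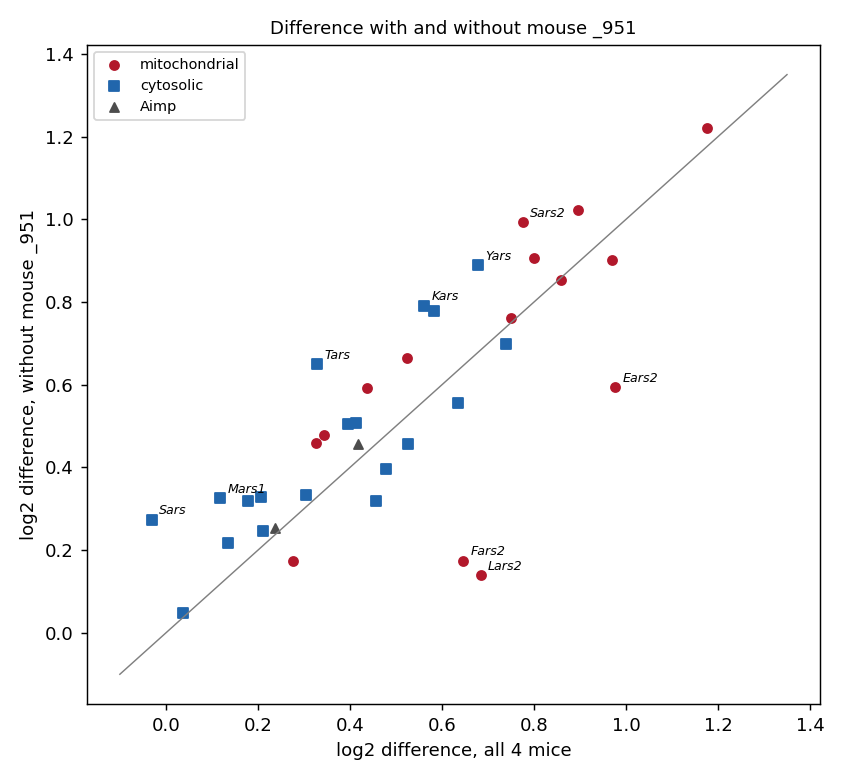
Log2 difference (CD117pos minus CD117neg) without mouse _951 on the vertical axis against that over all 4 mice on the horizontal axis, 1 point per member, with the line of equality. Lars2, Fars2 and Ears2 lie well below the line, whereas Tars, Sars, Kars, Sars2, Yars and Mars1 lie above it by over 0.2.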

How the data were processed

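PolyA RNA was amplified in 2 cycles, biotin-labelled and hybridised to 1-colour Affymetrix arrays, per the labels' protocols. The values deposited by the authors are probe set intensities on a linear scale (lowest 0.668). They were used as deposited, since the sources used here give neither the software that made them nor its scaling. Array medians were 27.5 to 32.8. Arrays have no read depth, and their number limits the precision. Of 45101 probe sets, 64 controls were left out, 34945 had 1 gene symbol in the platform annotation, and 932 with several and 9160 with none were not named. Gene identifiers of 34741 matched the RefSeq mouse table, and 0 symbols differed. Per gene, the probe set with the highest mean of log2(intensity + 16) was used.

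Differences were tested two-sided by lmFit and eBayes of limma 3.58.1 (R 4.3.3) over all 8 arrays with the mouse as a block, Benjamini-Hochberg adjusted over 18193 genes, and the script was tested on simulated data. Means are ± SD and differences ± SE. The study's design text gives both fractions to each mouse. As a check of this pairing, deviations from the fraction's mean correlated within mice at 0.21, 0.22, 0.27 and 0.12 across genes, which are not independent replicates. Members, lists and tests were chosen with earlier results of these data known. All members could be named, and of each pathway list the 3 largest changes past the threshold, or the largest if none passed, with all close relatives. The alternatives were pseudocounts of 1 and 64, a mean intensity of at least 50, quantile normalisation, centring on array medians, no block, other probe set rules, an intensity trend, and leaving out a mouse or the CD117pos array of mouse _951. Promoter sequences are from RefSeq, GRCm38.p6. Python 3.11.15 and matplotlib 3.10.9 served for summaries and figures.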

Additional observations from a re-analysis of the deposited data

Results flagged for a closer look

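In 8 of the 72 groups of 4 arrays (36 members in 2 fractions), 1 array stood off from the others by more than the critical value of Dixon's test for outliers, where chance gives about 1 in 20. Of these, 4 were the CD117pos array of mouse _951, which stood apart across all genes as well. No rate of such flags over all genes was computed, so they are not read as a trait of the members. Lars2 measured 3061 there, against 489 to 586 on the other CD117pos arrays, and Fars2 684, against 270 to 312. Eprs measured 2371, against 1803 to 1887, and Kars, lower than its group, 1115, against 1762 to 1842. On CD117neg arrays, Gars measured 1113 in mouse _951, against 1371 to 1388, and Mars1 543.6 in mouse _948, against 608 to 616. Rars2 measured 494.6 on the CD117neg array of mouse _953, against 399 to 406, and Tars2 462.6 on that of mouse _952, against 381 to 391.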

How the results depend on the processing

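Directions of the 36 members held under all alternatives with these exceptions. Sars was positive after quantile normalisation (0.17), centring on array medians (0.055), with the mean of all probe sets (0.074), without mouse _951 (0.27) and without its CD117pos array in a fit without the block (0.29). Farsb was -0.13 and Wars -0.30 with probe sets lacking the suffixes _a, _s and _x. Gars was -0.018 and Mars1 -0.082 without mouse _948. Without a mouse, Gars ranged from -0.018 to 0.069, Mars1 from -0.082 to 0.33 and Sars from -0.17 to 0.27. The number of members higher, 11, was 7 with a pseudocount of 1, 22 after quantile normalisation, 22 when only the CD117pos array of mouse _951 was left out without the block, and 2 to 20 when a mouse was left out. In the same order, 5.48%, 12.9%, 11.9% and 2.42% to 11.7% of all genes were higher. Without the block that the pairing by mouse sets, 14 members were higher, the 11 among them. The 4 cytosolic calls became 1, 11, 9 and 0 to 8 in that order of settings. The 7 mitochondrial calls became 12 without the array and 1 to 12 without a mouse. The mitochondrial median of 0.75 was 0.91 and 0.56 with pseudocounts of 1 and 64, 0.85 after quantile normalisation, 0.41 with the mean of all probe sets and 0.65 without the array. The cytosolic median of 0.40 was 0.21 with probe sets lacking the suffixes _a, _s and _x, and 0.39 with the mean of all probe sets. It was 0.29 to 0.58 over all alternatives other than the first of these. The median of all genes, -0.01, was 0.06 after quantile normalisation and 0.07 after centring.

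The 1 call among ATF4-responsive synthetases became 5 after quantile normalisation, 2 after centring, without the block, with the mean of all probe sets or an intensity trend, 4 without the array, and 0 to 4 without a mouse. For the other ATF4 genes, 6 higher became 3 with the mean of all probe sets and 1 to 6 without a mouse, and 4 lower became 2 to 5 without a mouse. Elongation factors, 2 higher, became 1 with a pseudocount of 1, 4 without the array and 0 to 3 without a mouse. RNA polymerase III genes, 2 higher, became 0 with a pseudocount of 1, 4 with a mean intensity of at least 50, after quantile normalisation or centring, 1 with either other probe set rule, 5 without the array and 0 to 4 without a mouse. Their 0 lower became 1 with a pseudocount of 64, the intensity filter, no block, an intensity trend, or without the array. For tRNA maturation, 6 higher became 11 after quantile normalisation and 3 to 8 without a mouse, and 2 lower became 1 with a pseudocount of 1 or quantile normalisation and 1 to 2 without a mouse. Mitochondrial translation partners, 6 higher, became 3 with a pseudocount of 1, 11 without the array and 1 to 9 without a mouse. The share of all genes higher was 8.36% in the main fit and 17.3% with the intensity filter. It was 12.9% after quantile normalisation, 10.4% after centring, 11.9% without the array and 5.48% with a pseudocount of 1. The share lower was 13.8% in the main fit, 25.9% with the filter and 16.2% without the array. Fits without a mouse or an array have fewer arrays, and the filter tests fewer genes. Otherwise the cause was not tested. Probe sets near background, such as those of Aars2 and Sars2, limit what can be seen at low signal.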
